A study of Mus musculus with 12 samples.

Results

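The comparison set 4 arrays of spheroids given TGFB1 directly against 4 arrays of spheroids given GDF11, which are 8 of the 12 arrays of the study, chosen by their labelled treatment alone. NMuMG, a line of normal mammary gland epithelium from the mouse, was grown here as spheroids on top of Matrigel, a basement membrane extract. Wells seeded with 5000 cells were cultured for 6 days and refed on day 4. The spheroids then received 250 ng/mL of GDF11 or 50 ng/mL of TGFB1 for 4 h, and a further 4 samples were held in serum-free medium for the same time. Each sample was a biological replicate that combined 2 wells. The doses by weight differed, so ligand and dose cannot be told apart, and the labels give neither the species nor the activity of the proteins. All samples come from 1 line, at 1 dose of each ligand and at 1 time.

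TGFB1 and GDF11 are secreted proteins of the TGF-beta family. TGFB1 binds the type II receptor TGFBR2 and recruits the type I receptor TGFBR1, while GDF11 binds the activin type II receptors ACVR2A and ACVR2B and acts through the type I receptors ACVR1B and TGFBR1. Both activate SMAD2 and SMAD3, which enter the nucleus with SMAD4 and act on target genes together with partners such as AP-1. In mammary epithelial cells TGF-beta is known for growth arrest and for epithelial-mesenchymal transition, in which cells loosen their junctions and make matrix. The direct comparison asks which genes responded differently to the ligands at these doses.

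Levels are log2 of normalized bead intensity, and a difference is the TGFB1 mean minus the GDF11 mean on that scale. In all, 9134 genes were tested with limma on all 12 arrays, and a gene was called at a Benjamini-Hochberg adjusted p under 0.05. The type I receptor Tgfbr1, the type II receptors Tgfbr2 and Acvr2b, and the luminal markers Krt8, Krt18 and Cdh1 were detected on all 8 ligand arrays, whereas Acvr1b was detected on none. Of 11 mammary luminal markers with a probe, 6 were detected on all 8 arrays, and Elf5, Gata3, Esr1, Prlr and Cited1 on none. Of 9 basal markers, Krt14, Acta2 and Itgb4 were detected on all 8, Krt15 on 1, and Krt5, Trp63, Myh11, Cnn1 and Cdh3 on none. No fibroblast, endothelial or leukocyte marker was detected on all 8 (0 of 10, 0 of 9 and 0 of 11), and 8 fibroblast markers were detected on none. Of 8 adipocyte markers, 2 were detected on all 8 arrays. In bulk RNA, fewer cells of a type and less RNA per cell cannot be told apart.

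GDF11 replicate 1 stood apart. Its mean raw intensity was 154 scanner units against 255 to 310 for the other GDF11 arrays and 287 to 304 for the TGFB1 arrays. Its correlation with other GDF11 arrays fell to 0.949, whereas the other 3 correlated at 0.994 to 0.995 and the TGFB1 arrays at 0.993 to 0.995. It was the array farthest from the GDF11 median for 6395 of the 9134 genes. Among the 76 called genes it was farthest for 24. Of the 4 serum-free arrays 3 were about as dim, and no TGFB1 array was. Mean raw intensity was 298 ± 7.53 with TGFB1 and 251 ± 68.5 with GDF11 (SD, n = 4, two-sided exact permutation p = 0.229). Beads per probe were 36.3 ± 1.34 with TGFB1 and 39.3 ± 0.60 with GDF11, with no overlap (two-sided exact permutation p = 0.0286, the smallest that 4 against 4 arrays can give). The serum-free arrays had 39.0 to 40.1 beads per probe, and the TGFB1 arrays, at 34.3 to 37.4, lay under every other array. Bead number and TGFB1 treatment thus cannot be told apart here. A term for dim against bright arrays was fitted for brightness, and the part of bead number in the results was not tested. Of the 41 called genes that the naming rule gave, 40 were also called without GDF11 replicate 1, all but Dio3, and all 41 with the brightness term.

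Few genes passed the test between the ligands. Of all genes, 76 of 9134 genes (0.832%) were called, with 40 higher (0.438%) and 36 lower (0.394%) in the TGFB1 arrays. Before adjustment 808 genes had a p under 0.05. For 8596 genes (94.1%) the 95% interval of the difference lay within 1 log2 unit of 0, that is, within 2-fold either way. The called differences ran from −1.30 to 1.50, and 25 reached 2-fold, 18 higher and 7 lower. The TGFB1 and GDF11 arrays did not overlap for any of the 76 genes, against 960 genes (10.5%) over the whole table, 456 higher (4.99%) and 504 lower (5.52%). All 40 genes higher with TGFB1 were detected on all 4 TGFB1 arrays, 8 of them were not detected on every GDF11 array, and 10 were not detected in serum-free medium. All 36 lower genes were detected on all 12 arrays.

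Leaving out GDF11 replicate 1 gave 109 calls (1.19%), 66 higher (0.723%) and 43 lower (0.471%), and kept 72 of the 76. A term for dim against bright arrays in the fit gave 229 calls (2.51%), 117 higher (1.28%) and 112 lower (1.23%). The bright arrays alone, 4 with TGFB1 and 3 with GDF11, gave 477 of 8918 genes (5.35%), 252 higher (2.83%) and 225 lower (2.52%). Both settings kept all 76. With only the 8 ligand arrays in the fit 88 genes were called (0.963%), 49 higher (0.536%) and 39 lower (0.427%). The median standard error was 0.167 on all arrays and 0.106 on the bright arrays. Leaving out any other ligand array lowered the count, to between 19 and 53, the lowest without TGFB1 replicate 3. The balance of directions depended on the scaling: scaling each array to its median moved the median of all genes to 0.29 and gave 31 higher and 1 lower, and the authors' processed values gave 79 higher and 30 lower. Medians of gene groups below are on the quantile scale, and under median scaling they shift up with that of all genes, so that the negative ones of the BMP, S phase and cholesterol groups turn positive.

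**Figure D1:**
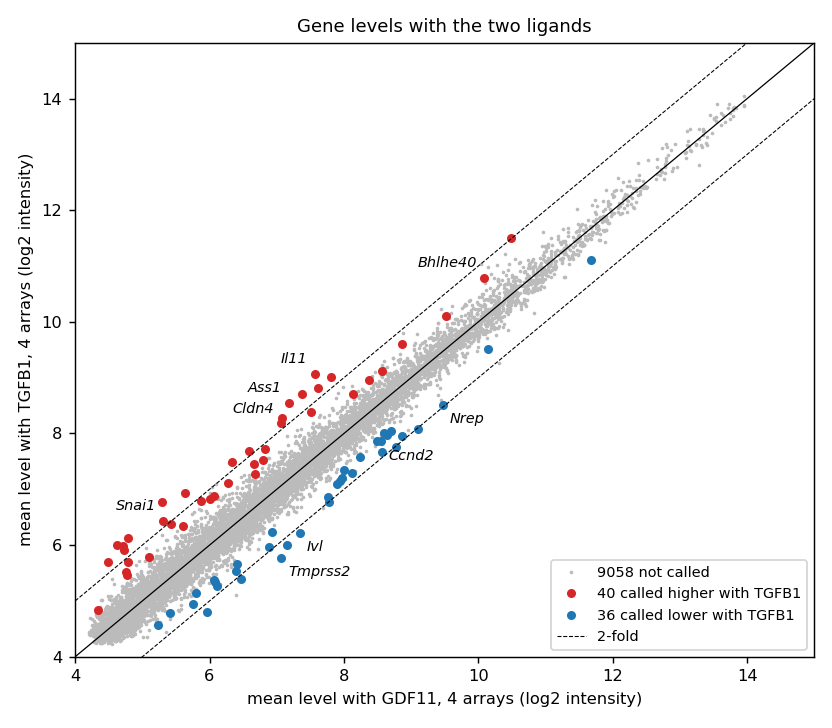
Mean level of each of 9134 genes with GDF11 (x axis) and with TGFB1 (y axis), both in log2 intensity over 4 arrays. Red and blue points are the 40 and 36 called genes, the solid line marks equal levels and the dashed lines a 2-fold difference. Most genes lie on the solid line, and 25 called genes lie beyond 2-fold.

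The mean level with GDF11 lay between the serum-free mean and the TGFB1 mean for 38 of the 40 higher genes and for 34 of the 36 lower ones. Inhba and Tapbpl, and Nrep and Net1, were the exceptions. Against serum-free medium, GDF11 called 29 of the 40 higher and 27 of the 36 lower, where 9.93% of all genes were called. TGFB1 called all 40 and all 36, where 34.4% of all genes were called. Most serum-free arrays were dim, as was GDF11 replicate 1, while no TGFB1 array was. Treatment and brightness are therefore mixed in both contrasts with medium, and most in that of TGFB1. How much of the gap between these shares goes with brightness was not tested. The comparisons share arrays, and genes far apart between ligands are bound to lie far from medium with at least 1 of them, so these counts only describe levels.

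Promoters of 4 called genes are shown so that a reader can see the searched motifs in place: Il11 and Cldn4, higher with TGFB1, which hold both, and Tmprss2 and Ivl, lower, which hold 1 kind each. Each runs from 250 bases before to 50 after the start of transcription, in RefSeq on build GRCm38.p6, at chr7:4778092-4778391 (minus strand, 1 of 2 listed starts), chr5:134946885-134947184 (minus strand), chr16:97611146-97611445 (minus strand) and chr3:92573686-92573985 (minus strand). Capitals mark the SMAD-type motif CAGAC or its reverse complement GTCTG and the AP-1 motif TGANTCA, which reads the same on both strands.
Il11: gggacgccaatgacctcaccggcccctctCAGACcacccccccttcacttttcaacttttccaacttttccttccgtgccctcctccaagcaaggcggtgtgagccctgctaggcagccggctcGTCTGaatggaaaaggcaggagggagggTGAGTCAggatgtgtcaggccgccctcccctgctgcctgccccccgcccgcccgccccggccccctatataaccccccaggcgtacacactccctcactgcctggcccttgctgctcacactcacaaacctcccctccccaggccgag
Cldn4: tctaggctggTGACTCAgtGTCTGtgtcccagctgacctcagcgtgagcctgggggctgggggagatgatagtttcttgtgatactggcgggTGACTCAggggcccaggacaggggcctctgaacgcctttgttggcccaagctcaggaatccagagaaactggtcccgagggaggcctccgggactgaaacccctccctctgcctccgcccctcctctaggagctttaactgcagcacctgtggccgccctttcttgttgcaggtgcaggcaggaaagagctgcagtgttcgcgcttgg
Tmprss2: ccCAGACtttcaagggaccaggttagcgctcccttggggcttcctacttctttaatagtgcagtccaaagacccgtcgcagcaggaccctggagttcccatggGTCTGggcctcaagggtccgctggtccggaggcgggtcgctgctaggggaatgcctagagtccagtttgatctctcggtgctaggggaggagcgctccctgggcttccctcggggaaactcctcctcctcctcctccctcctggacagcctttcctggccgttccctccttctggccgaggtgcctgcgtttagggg
Ivl: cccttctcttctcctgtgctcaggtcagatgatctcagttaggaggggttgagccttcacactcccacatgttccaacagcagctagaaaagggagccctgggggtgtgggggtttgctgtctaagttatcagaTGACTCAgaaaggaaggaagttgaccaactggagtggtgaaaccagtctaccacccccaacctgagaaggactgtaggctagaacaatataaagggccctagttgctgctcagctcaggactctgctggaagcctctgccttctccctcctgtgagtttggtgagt
The Il11 promoter held 2 SMAD-type and 1 AP-1 match, that of Cldn4 held 1 and 2, that of Tmprss2 held 2 and 0, and that of Ivl held 0 and 1. A SMAD-type match stood in 60% of the 30 higher genes with a promoter in the table, in 48.1% of the 27 lower ones and in 52.6% of 7063 tested genes. An AP-1 match stood in 5 of the 30 (16.7%), in 3 of the 27 (11.1%) and in 6.60% of tested genes. A match is a run of letters and not a bound site, and a gene with several starts counted if any of them held one.

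Il11, a cytokine of the interleukin-6 family and a SMAD target in epithelia, showed the largest difference. Its levels were 7.91, 6.79, 7.36 and 8.19 with GDF11 and 8.86, 9.02, 9.26 and 9.10 with TGFB1. The groups did not overlap, although GDF11 replicates spread over more than 1 log2 unit. The difference was 1.50 ± 0.27 (SE; 2.82-fold; limma adjusted p = 0.0181), and 1.61 without GDF11 replicate 1 (adjusted p = 0.0116). In medium Il11 averaged 5.04, so both ligands raised it, by 2.53 with GDF11 (adjusted p = 5.2e-05) and by 4.02 with TGFB1 (adjusted p = 2.6e-07).

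Matrix and glycan genes among the 12 largest differences are given together. Pcolce2, an enhancer of procollagen processing, had levels of 7.40, 7.42, 7.19 and 7.47 with GDF11 and 8.85, 8.54, 8.83 and 8.63 with TGFB1. The difference was 1.34 ± 0.15 (adjusted p = 0.00100), and a second probe gave 1.04 (adjusted p = 0.00292). Without GDF11 replicate 1 the Pcolce2 difference was 1.36. Sdc3, the heparan sulfate proteoglycan syndecan 3, lay at 7.37 to 7.92 with GDF11 and at 8.75 to 8.86 with TGFB1, a difference of 1.20 ± 0.16. Timp3, a matrix-bound inhibitor of metalloproteases, differed by 1.20 ± 0.25 (adjusted p = 0.0375), but its second probe by 0.57 (adjusted p = 0.286). Chst8, a sulfotransferase of sugar chains on glycoproteins, differed by 1.20 ± 0.21, with no overlap between groups.

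Ass1, argininosuccinate synthase of arginine synthesis, had levels of 7.30, 6.88, 7.15 and 7.43 with GDF11 and 8.48, 8.45, 8.72 and 8.52 with TGFB1. The groups lay a full log2 unit apart at their nearest, and the difference was 1.36 ± 0.14 (adjusted p = 0.000499), and 1.39 without GDF11 replicate 1. Ass1 averaged 5.26 in medium.

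Several of the largest differences concerned genes near background. Adgra1, an adhesion G protein-coupled receptor, was not detected in medium, and had levels of 5.53, 4.86, 5.31 and 5.47 with GDF11 and 6.66, 6.83, 6.69 and 6.88 with TGFB1. Its difference was 1.47 ± 0.15 (adjusted p = 0.000367). Lce1f, a late cornified envelope protein, and Prss46, a serine protease, were detected on all 4 TGFB1 arrays but on only 2 of 4 GDF11 arrays and on none in medium. They differed by 1.38 ± 0.12 and 1.22 ± 0.11, each with an adjusted p of 0.000183. Ctsw, the cysteine protease cathepsin W, Chrna1, a subunit of the muscle acetylcholine receptor, and the transcription factor Nfe2l3 differed by 1.35, 1.28 and 1.29. They were detected on 3 of 4 GDF11 arrays and on none in medium. Lce1f, Prss46, Ctsw, Chrna1 and Nfe2l3 reached the 4 detected arrays of the filter only with TGFB1. They thus entered the test through the group where they were high, and their calls depend on that. Nfe2l3 was not detected on the dim GDF11 replicate 1 (4.72 against 5.85 to 6.12 on the others), and without that array its difference was 0.98 (adjusted p = 0.00168). Against GDF11 as against medium, folds of genes this dim are pulled toward 1 by the offset added before the logarithm.

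**Figure D2:**
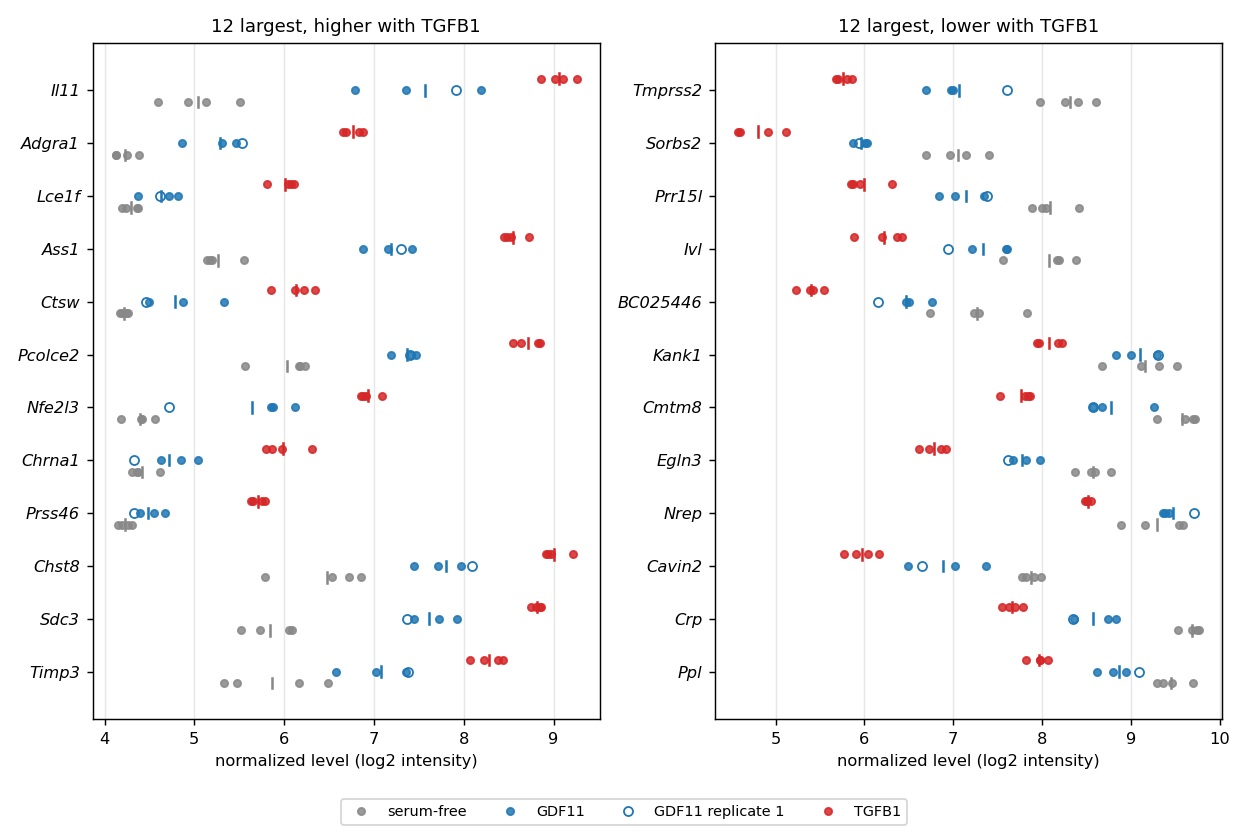
Level of the 12 genes with the largest called difference in each direction, on each array (x axis, log2 intensity), in serum-free medium (grey), with GDF11 (blue, replicate 1 as an open circle) and with TGFB1 (red). Vertical ticks are means of 4 arrays. The red points do not overlap the blue ones for any gene shown, and the blue points lie between red and grey for most.

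Among genes lower with TGFB1, Tmprss2, a serine protease of epithelial membranes, showed the largest difference. Its levels were 7.60, 6.97, 6.99 and 6.70 with GDF11 and 5.68, 5.81, 5.86 and 5.70 with TGFB1. Medium averaged 8.31, and every TGFB1 array lay under every GDF11 array. The difference was −1.30 ± 0.18 (adjusted p = 0.00458), and −1.13 without GDF11 replicate 1, the highest of the GDF11 arrays. Of 15 membrane serine proteases and Kunitz inhibitors listed, 4 were tested and Tmprss2 alone was called. For this and each later list count from the main fit, the shares over all genes were 0.438% higher and 0.394% lower.

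Proteins of barrier epithelium were among the lower genes. Ivl, involucrin of the cornified envelope, had levels of 6.94, 7.61, 7.22 and 7.59 with GDF11 and 6.43, 6.20, 6.36 and 5.88 with TGFB1. The difference was −1.12 ± 0.20 (adjusted p = 0.0183), and −1.25 without GDF11 replicate 1. Ppl, the desmosomal and cornified envelope protein periplakin, differed by −0.90 ± 0.13 (adjusted p = 0.00556), and its second probe by −0.57 (adjusted p = 0.465). These were the 2 of 16 tested keratins and differentiation genes that were called, while Lce1f, also of the cornified envelope, was higher.

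Of 31 tested actin and focal adhesion genes only Lima1, an actin-bundling protein, was called, and the median over the list was 0.05. Lima1 differed by −0.66 ± 0.12, though its second probe gave −0.46 (adjusted p = 0.410). The next genes were named for the size of their difference. Sorbs2, a cytoskeletal adaptor, lay at 5.87 to 6.03 with GDF11 and at 4.58 to 5.11 with TGFB1, a difference of −1.16 ± 0.16. Its lowest TGFB1 levels were near the lowest detected level on those arrays, 4.43 to 4.47, where the offset pulls folds toward 1. Kank1, which ties focal adhesions to microtubules at the cell cortex, lay at 8.84 to 9.30 with GDF11 and at 7.94 to 8.22 with TGFB1. Its mean with GDF11 was 9.11 against 9.16 in medium (difference −0.05, adjusted p = 0.861), while with TGFB1 it fell by 1.08 from medium (adjusted p = 0.000629). Nrep had levels of 9.36 to 9.71 under GDF11, 8.48 to 8.55 under TGFB1 and a mean of 9.29 in medium. Cavin2, a coat protein of caveolae, differed by −0.91 ± 0.17.

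Egln3, a prolyl hydroxylase that marks hypoxia-inducible factors for breakdown, had levels of 7.62, 7.97, 7.67 and 7.82 with GDF11 and 6.72, 6.92, 6.87 and 6.61 with TGFB1. The difference was −0.99 ± 0.13 (adjusted p = 0.00267), and −1.04 without GDF11 replicate 1. No other of the 25 tested hypoxia and glycolysis genes was called on all arrays. Crp, the acute-phase C-reactive protein, differed by −0.90 ± 0.13 and Cmtm8, a membrane protein, by −1.01 ± 0.17, with −1.07 on its second probe. Prr15l and BC025446 differed by −1.15 ± 0.16 and −1.07 ± 0.20, and the second probes gave −1.27 (adjusted p = 0.00171) and −0.70 (adjusted p = 0.584).

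Of 28 tested SMAD2/3 targets, 5 were called higher and 1 lower with TGFB1, beside 0.438% and 0.394% of all genes. Their median difference was 0.41 beside −0.01 over all genes. Without GDF11 replicate 1 the counts were 6 and 1, beside 0.723% and 0.471% of all genes, and the median was 0.37. Besides Il11 and Timp3 the higher ones were Snai1, Bhlhe40 and Spsb1. Snai1, the repressor of E-cadherin that drives epithelial-mesenchymal transition, had levels of 5.22, 4.78, 5.65 and 5.59 with GDF11 and 6.38, 6.24, 6.68 and 6.45 with TGFB1. It was detected on all 8 ligand arrays and on 1 of 4 in medium, and the difference was 1.12 ± 0.20 (2.18-fold; adjusted p = 0.0169), and 1.10 without GDF11 replicate 1. Bhlhe40, a transcriptional repressor, lay at 9.98 to 10.3 with GDF11 and at 10.7 to 10.9 with TGFB1, a difference of 0.70 ± 0.14 (adjusted p = 0.0285). Spsb1, an adaptor of a ubiquitin ligase, rose by 2.38 with GDF11 and by 2.96 with TGFB1 over medium, and differed by 0.58 ± 0.12 between them (adjusted p = 0.0410).

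Other targets known for strong responses to TGF-beta did not pass the test between the ligands. Pmepa1 and Skil, feedback inhibitors of the pathway, differed by 0.02 (95% interval −0.45 to 0.49) and −0.15 (−0.53 to 0.23). Both were raised over medium by both ligands, Pmepa1 by 1.97 with GDF11 and 1.99 with TGFB1. Junb, an AP-1 subunit, differed by −0.11 (−0.41 to 0.20), and the cell cycle inhibitors Cdkn2b and Cdkn1a by 0.10 (−0.23 to 0.43) and 0.09 (−0.17 to 0.35). These intervals all include 0 and still allow small differences in either direction. Other Cdkn1a probes gave 0.18 (adjusted p = 0.857) and 0.57 (adjusted p = 0.765). Smad7 was detected on no ligand array and Snai2 had no probe in the table, so neither was tested.

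Among ligands and antagonists of the family, 1 of 13 tested genes was called higher and 2 lower. Inhba, the subunit of activin A, had levels of 6.74, 6.38, 6.77 and 6.73 with GDF11 and 7.54, 7.48, 7.40 and 7.41 with TGFB1. The difference was 0.80 ± 0.13 (adjusted p = 0.0122), and 0.83 without GDF11 replicate 1. Its mean with GDF11 was 0.18 under that of medium (adjusted p = 0.356), while TGFB1 raised it by 0.62 (adjusted p = 0.00366). Lefty1, an antagonist of Nodal signalling, and Gdf15, a stress-induced family member, were lower with TGFB1, by −0.74 ± 0.13 and −0.70 ± 0.13 (adjusted p = 0.0181 for each). Both were also below medium with either ligand. Tgfb1 itself differed by 0.10 (−0.17 to 0.38).

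None of the 9 receptors and coreceptors tested was called. Tgfbr1 differed by −0.16 (−0.62 to 0.30), Tgfbr2 by −0.20 (−0.44 to 0.04) and Acvr2b by −0.07 (−0.65 to 0.51). Other Tgfbr1 probes gave 0.37, 0.30 and −0.07, and another Tgfbr2 probe gave −0.12, none of them called. Acvr1, a type I receptor of BMPs and activins, had levels of 8.52 to 9.09 with GDF11 and 9.34 to 9.50 with TGFB1. The groups did not overlap, but the difference of 0.59 ± 0.15 did not pass on all arrays (adjusted p = 0.121) and did on the bright ones (0.49, adjusted p = 0.0138). Of 15 SMADs and regulators none was called on all arrays.

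**Figure D3:**
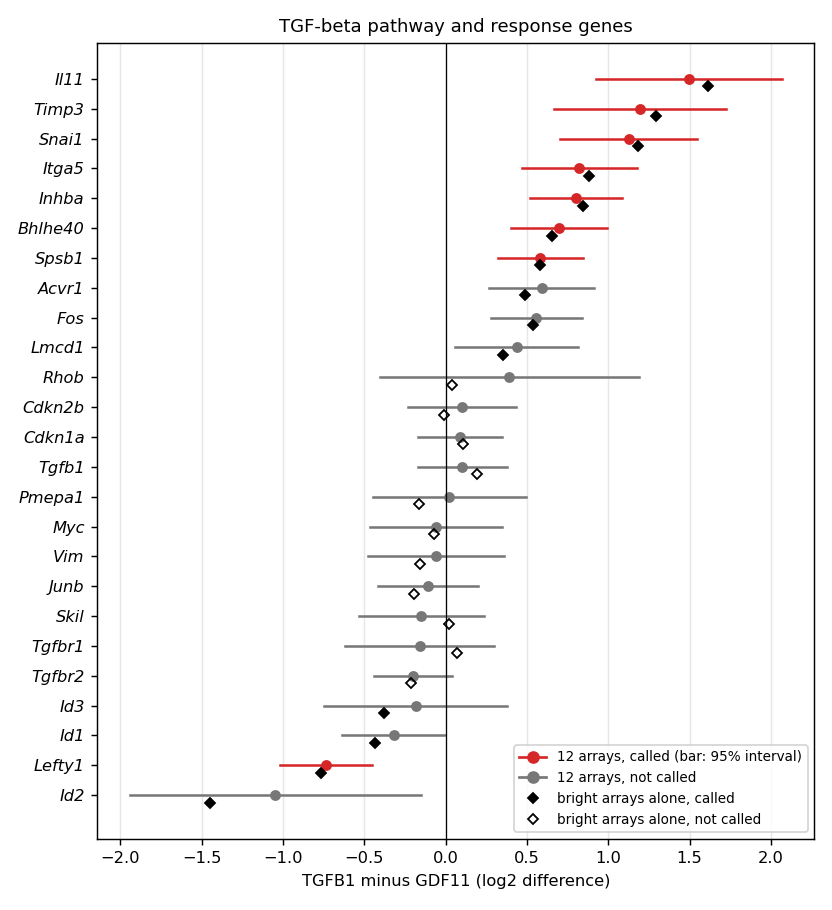
Difference TGFB1 minus GDF11 (x axis, log2) for 25 TGF-beta pathway and response genes. Circles and bars give the estimate and 95% interval from all 12 arrays (red where called, grey where not), and diamonds the estimate from the bright arrays alone (filled where called). Il11, Timp3, Snai1, Itga5, Inhba, Bhlhe40, Spsb1 and Lefty1 were called on all arrays, and Acvr1, Fos, Lmcd1, Id1, Id2 and Id3 only on the bright ones.

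Of 17 mesenchymal genes tested, Snai1 and Itga5 were called higher and none lower. Itga5, the alpha subunit of the fibronectin receptor, lay at 5.88 to 6.12 with GDF11 and at 6.55 to 7.12 with TGFB1 (difference 0.82 ± 0.16, adjusted p = 0.0304; second probe 0.68, adjusted p = 0.106). Vim, the mesenchymal filament vimentin, differed by −0.06 (−0.48 to 0.36). Of 31 matrix and protease genes, 2 were called, Timp3 and Col7a1, collagen VII of anchoring fibrils, at 5.12 to 5.81 with GDF11 and 6.12 to 6.57 with TGFB1 (0.95 ± 0.20, adjusted p = 0.0375). The median over the 31 was 0.21.

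Of 26 junction and polarity genes only Cldn4 was called. Cldn4, a claudin of tight junctions, had levels of 7.55, 6.73, 7.10 and 6.86 with GDF11 and 8.27, 8.11, 8.09 and 8.25 with TGFB1, and was not detected in medium. The difference was 1.12 ± 0.16 (2.17-fold; adjusted p = 0.00527), and 1.28 without GDF11 replicate 1. TGFB1 was at least 11.7-fold over the lowest detected level in medium. Cdh1, E-cadherin, differed by 0.19 (−0.32 to 0.70), and by −0.02 without GDF11 replicate 1.

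None of 32 S phase and mitosis genes was called on all arrays, without GDF11 replicate 1, with the brightness term or on the bright arrays, and their median difference was −0.03. Ccnd2, cyclin D2, was the single call among 24 G1 genes, at 8.45, 8.74, 8.55 and 8.49 with GDF11 and 7.86, 7.89, 7.88 and 7.80 with TGFB1, against 9.79 in medium. The difference was −0.70 ± 0.10 (adjusted p = 0.00556), and the groups did not overlap. Myc, detected on 2 of 4 arrays with each ligand, differed by −0.06 (−0.47 to 0.35).

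Other lists held at most 2 calls on all arrays. Tnfrsf21, death receptor 6, was called lower (−0.84 ± 0.13) among 26 apoptosis genes, although a second probe gave −0.55 (adjusted p = 0.334). Osgin1 was lower among 25 NRF2 targets (−0.90 ± 0.15), Fjx1 among 19 YAP and TEAD targets (−0.86 ± 0.15) and the clock output factor Dbp among 14 clock genes (−0.84 ± 0.16). The other call among the clock genes, Bhlhe40, was higher (0.70 ± 0.14). Oasl2, an interferon-stimulated gene, was higher (0.68 ± 0.14, 1 of 19). Dio3, which inactivates thyroid hormone, was lower among 23 retinoid, steroid and drug metabolism genes (−0.67 ± 0.14, adjusted p = 0.0498), and passed no longer without GDF11 replicate 1 (−0.57, adjusted p = 0.0672). With TGFB1, Dio3 lay near background, at 4.46 to 4.66. None of 58 ribosomal protein genes, 76 oxidative phosphorylation genes, 29 unfolded protein genes or 25 cholesterol genes was called, and the medians of these groups lay between −0.15 and 0.05.

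**Figure D4:**
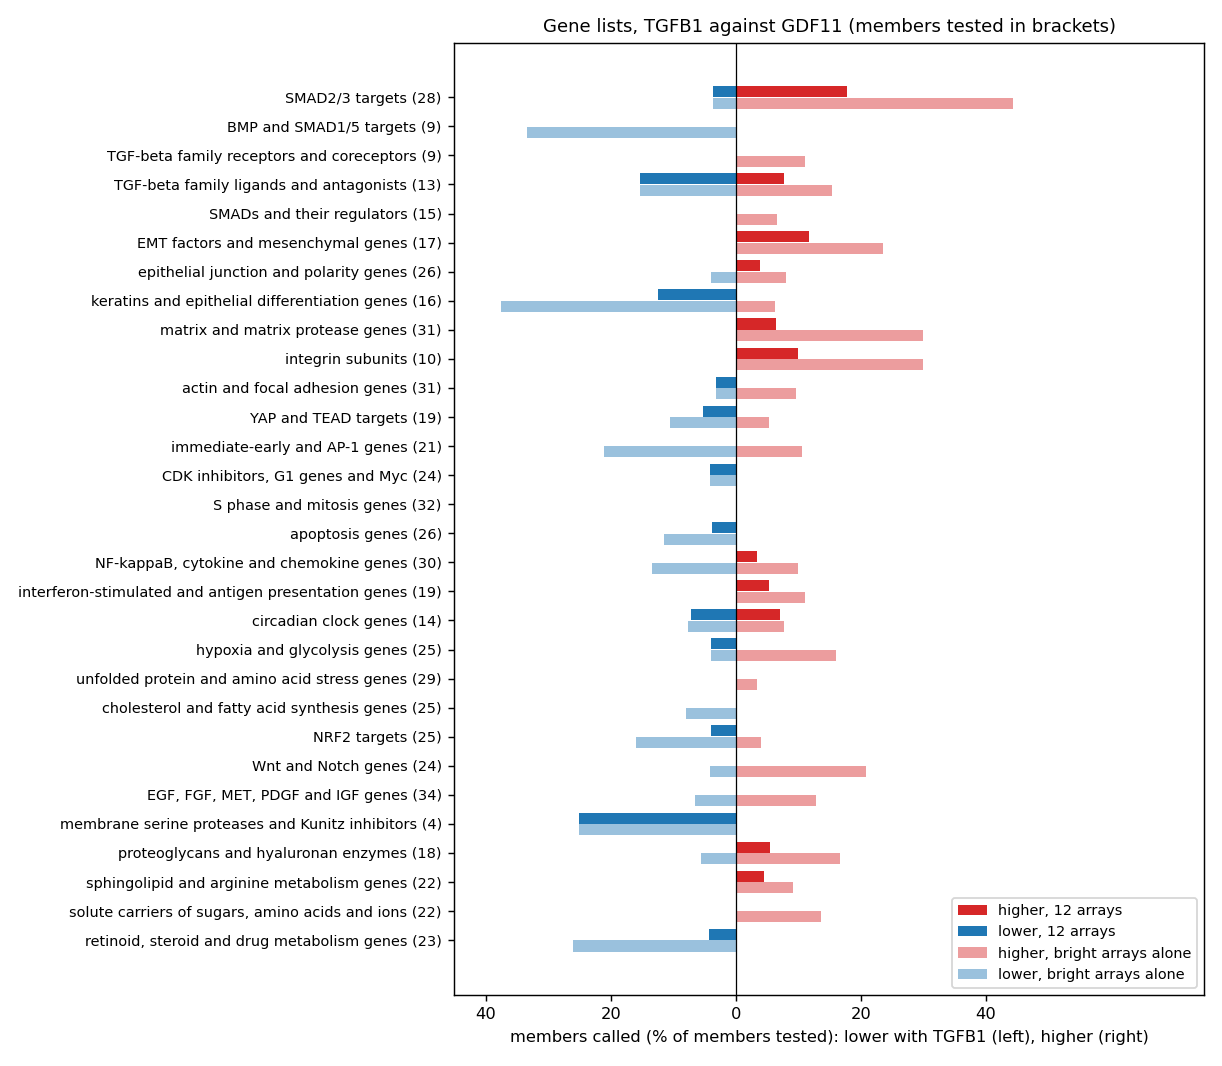
Share of tested members of 30 gene lists called higher (red, right) or lower (blue, left) with TGFB1, in percent on the x axis. Dark bars are the fit on all 12 arrays and pale bars that on the bright arrays alone, with the number tested on all arrays in brackets. Over all genes the shares were 0.438% higher and 0.394% lower on all arrays and 2.83% and 2.52% on the bright arrays.

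On the bright arrays alone more members passed, as did more of all genes, 2.83% higher and 2.52% lower. SMAD2/3 targets had 12 called higher and 1 lower of 27, and matrix genes 9 higher and none lower of 30, among them Col5a1 (0.86), Tnc (0.57), Lamb3 (0.55) and Timp1 (0.52). Among keratins and differentiation genes 6 were lower, with Klf4 (−0.87), Krt19 (−0.44) and Muc1 (−0.43) besides Ivl and Ppl, and 1 was higher, Krt14 (0.82). Outside that list, the keratin Krt16 (1.02) and the cornified envelope gene Lce1f (1.56) were also called higher there. The balance of directions thus holds for the listed members only. All 6 calls among 23 retinoid, steroid and drug metabolism genes were lower. Sphk1 (0.89), Itgb6 (0.57) and Ccn2 (0.48) were further SMAD2/3 targets, and Pfkfb4 (1.30) was the largest among hypoxia and glycolysis genes. These members were picked after their values were seen.

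The inhibitors of differentiation Id1, Id2 and Id3 are targets of BMP signalling that TGF-beta can repress. Id2 had levels of 9.07, 10.84, 10.67 and 10.67 with GDF11 and 9.34, 9.21, 9.21 and 9.30 with TGFB1. GDF11 replicate 1 lay under all TGFB1 arrays, and the other 3 more than 1 log2 unit over them. On all arrays the difference was −1.05 ± 0.42 (adjusted p = 0.459), and −1.07 on a second probe. Without replicate 1 it was −1.46 (adjusted p = 0.0516), and on the bright arrays −1.45 (adjusted p = 4.5e-05). Id1 and Id3 differed by −0.32 and −0.18 on all arrays and by −0.43 (adjusted p = 0.231) and −0.33 (adjusted p = 0.924) without that array, and were not called in either fit. The bright arrays, which also leave out 3 serum-free arrays, called both (−0.43 and −0.38). Thus 3 of 9 BMP and SMAD1/5 targets were lower there, beside 2.52% of all genes. The fit with the brightness term on all 12 arrays called 2 lower, beside 1.23% of all genes. These were Id1 (−0.44, adjusted p = 0.0104) and Id2 (−1.47, adjusted p = 4.1e-05). None of the 9 was called in the main fit or without GDF11 replicate 1.

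Cd40, a receptor of the tumour necrosis factor family, had levels of 7.35, 5.69, 5.98 and 6.14 with GDF11 and 7.35, 7.65, 7.61 and 7.24 with TGFB1. GDF11 replicate 1 lay within the TGFB1 range. The difference was 1.17 ± 0.27 on all arrays (adjusted p = 0.0724) and 1.53 without that array (adjusted p = 0.000189), but 2 other Cd40 probes gave 0.63 and 0.59. Kitl, the ligand of the KIT receptor, was at 7.23 on GDF11 replicate 1 and at 4.69 to 4.76 on the others, against 7.62 to 7.88 on the 3 dim serum-free arrays and 5.29 on the bright one. Its difference moved from −0.91 to −0.29 without that array, and passed in neither fit. Krt8 and Krt18, keratins of simple epithelium, moved from 0.35 to 0.12 and from 0.23 to −0.02.

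Of 13 genes that both ligands moved at least 4-fold from medium and that were detected on all 8 ligand arrays, 6 were called between the ligands, beside 0.832% of all genes. Il11 and Cldn4 were among the 6, and the genes below are those of the 13 chosen for the smallest difference. The comparisons of the ligands with medium share its 4 arrays. The 4-fold rule also used the 8 ligand arrays that are compared here. The count of 6 among the 13 therefore only describes levels. Fam210b, a mitochondrial protein, differed least, at 9.12, 9.23, 9.20 and 9.51 with GDF11 and 9.26, 9.55, 9.33 and 9.25 with TGFB1. The groups overlapped, and the difference was 0.08 (−0.19 to 0.36). Lmcd1, a LIM-domain cofactor, rose by 4.15 with GDF11 and by 4.59 with TGFB1, and the difference between them was 0.44 (0.06 to 0.82, adjusted p = 0.467). Its 2 other probes gave 0.10 and 0.30. Depp1 fell by 2.61 with GDF11 and fell by 3.27 with TGFB1, and differed by −0.66 ± 0.16 (adjusted p = 0.112, and 0.0410 without GDF11 replicate 1). Rhob, a small GTPase, differed by 0.39 (−0.41 to 1.19), and by 0.04 without that array.

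**Figure D5:**
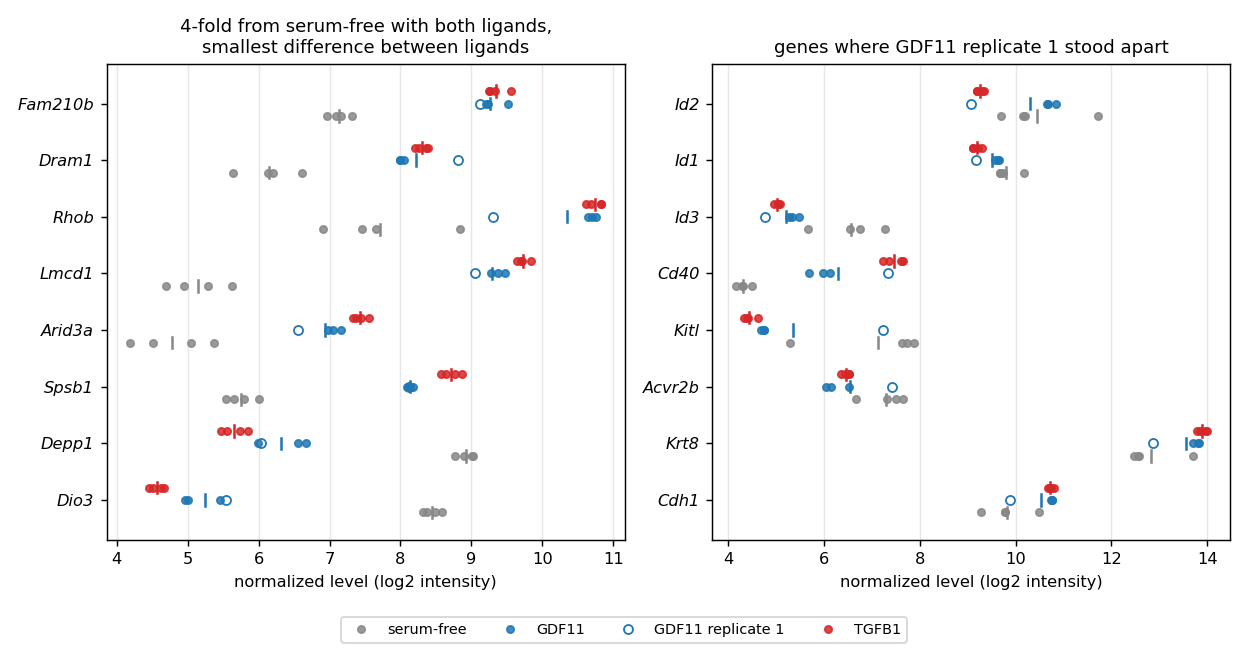
Level on each array (x axis, log2 intensity) in serum-free medium (grey), with GDF11 (blue, replicate 1 open) and with TGFB1 (red), with ticks at the means. Left, the 8 genes at least 4-fold from medium with both ligands that differed least between them; right, 8 genes on which GDF11 replicate 1 lay away from the other 3 GDF11 arrays, as for Kitl at 7.23.

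Detection gave a view that did not use normalized levels. A probe of 18 genes was detected on all 4 TGFB1 arrays and on no GDF11 array, and 13 of these genes had no other detected probe. The reverse held for 2 genes, Mre11a and Tceanc2, each with another probe that was detected. Without the dim GDF11 replicate 1 the counts were 22 and 16. Fank1 had the highest TGFB1 mean of the 18, at 4.31 to 4.39 with GDF11 and at 4.78 to 4.93 with TGFB1, at least 1.24-fold higher. It is counted among the 76 calls but was detected with TGFB1 alone, so it entered the test only through the group where it was high. The called genes Lce1f, Prss46, Ctsw, Chrna1, Nfe2l3 and Traf1 also met the filter only through TGFB1. Each was detected on 2 or 3 GDF11 arrays and on none in medium. The 18 all lay near background, with group means of 4.48 to 4.83 with TGFB1.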

How the data were processed

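The study measured mRNA on 12 one-colour Illumina beadchip arrays. Per the file headers, the deposited non-normalized table gives each probe's mean bead intensity, linear and not background-subtracted. Beside it stand, per the file headers, each detection p-value, a bead count per probe (another kind of measure) and the standard error over beads, in intensity units. The second deposited table holds values that look like log2 intensity. Their base and steps are not stated in the labels, and the submitters' processing notes name lumi. No pair of arrays held identical values.

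With limma 3.58.1 in R 4.3.3, intensities were corrected and normalized by neqc (background from the detection p-values, offset 16, quantile, log2). A probe entered (12680 did) if its detection p was under 0.05 on 4 or more of the 12 arrays, with the probe of highest mean for the 2490 genes that had several. This gave 9134 genes, of which 18 had no usable symbol and are not named. Symbols (18138) were updated through RefSeq's gene table: 14307 were current, 2906 matched by synonym and 904 were kept as given. lmFit and eBayes fitted the 3 groups on all 12 arrays, with the contrast TGFB1 minus GDF11 and Benjamini-Hochberg adjustment over all genes. The fit was tried on simulated data with the same noise on every array, so with no dim array. There it called 12 of 67 genes changed by 0.5 log2 units, 62 of 67 changed by 1 and 66 of 66 changed by 2. Of its 146 calls there, 6 were of unchanged genes. Bright and dim arrays were separated where their mean raw intensities lay farthest apart. The 4 arrays per group limit the precision.

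Named genes were the 12 largest called differences each way (no overlap of arrays, detection throughout the higher group), 36 fixed genes (some are not reported here), up to 4 called members of each list, and the 8 most similar of the genes at least 4-fold from medium with both ligands. Members and lists were chosen with earlier results of these data known, no list was given a test, and some genes stand in several lists. For genes undetected in 1 group, folds are lower bounds against the lowest detected level. Alternatives covered background, offset, normalization, filter, probe choice, arrays in the fit, brightness, weights, the replicate number as a block and each ligand array left out. Figures were drawn with matplotlib 3.10.9 in Python 3.11.15.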

Additional observations from a re-analysis of the deposited data

Results flagged for a closer look

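Of 148 groups of 4 arrays examined, 142 of them for named genes, 13 held an array whose gap to its nearest neighbour passed Dixon's 95% limit, and chance flags about 1 in 20 groups. GDF11 replicate 1 accounted for 8 of them: Cdh1 at 9.89, Krt8 at 12.9, Krt18 at 11.6, Id1 at 9.17, Id2 at 9.07 and Rhob at 9.31 lay below the other GDF11 arrays, and Kitl at 7.23 and Dram1 at 8.81 above them. The array was also the dimmest with a ligand. In the fit with a brightness term, bright arrays differed from dim ones for all 8 genes, by 0.87 for Cdh1, 1.03 for Krt8, 1.15 for Krt18, 0.46 for Id1, 1.69 for Id2, 1.45 for Rhob, −2.48 for Kitl and −0.74 for Dram1 (limma with Benjamini-Hochberg adjustment, adjusted p from 3.26e-08 to 0.000939). The 4 dim arrays are 3 serum-free arrays and GDF11 replicate 1. The values of that replicate also picked these 8 genes, so the p-values share them and are no separate support. Whether brightness moved the levels was not tested. The other flags were Chst8 on TGFB1 replicate 4 at 9.21 and Inhba on GDF11 replicate 2 at 6.38. Cmtm8 was flagged on GDF11 replicate 2 at 9.26 and on TGFB1 replicate 3 at 7.53, and Shh on TGFB1 replicate 3 at 4.45. Without GDF11 replicate 2 or TGFB1 replicate 3 the counts of called genes were 31 and 19, as given with the other omissions.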

How the results depend on the processing

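The direction of all 76 called genes was the same in every alternative that tested them, while the number called ran from 19 to 674. Leaving out an array could not reverse a direction, since the groups did not overlap for any of the 76. The other alternatives drew on the same arrays, so the shared direction is no separate support. A term for brightness gave 229 calls (117 higher, 112 lower), the bright arrays alone 477 (252 and 225), cyclic loess 128 (64 and 64) and array weights 674 (349 and 325). Requiring 2-fold as well left 25 (18 and 7). The authors' processed values gave 79 higher. The 2 settings added after the data were seen also left out GDF11 replicate 1: the brightness term then gave 251 (129 and 122), and a fit of the ligand arrays alone 536 (286 and 250). Leaving out 1 ligand array at a time gave 19 to 109 calls, 12 to 66 higher and 7 to 43 lower. Over the same omissions the bead number difference ran from −3.40 to −2.39, where 3 against 4 arrays cannot go below an exact permutation p of 0.0571. Genes detected with GDF11 alone numbered 16 without GDF11 replicate 1. Group medians over these omissions ran from 0.0241 to 0.158 for junction genes, from −0.0811 to −0.00178 for S phase genes and from −0.0132 to 0.0741 for NF-kappaB and cytokine genes.

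Median scaling gave 32 calls, 1 of them lower, of which 16 were among the 76, and moved the median of all genes to 0.29. Group medians there were 0.71 for SMAD2/3 targets, 0.61 for integrins, 0.59 for matrix genes, 0.52 for keratins and differentiation genes, 0.50 for family ligands and antagonists, 0.49 for proteoglycans, 0.43 for unfolded protein genes, 0.42 for actin genes, 0.41 for mesenchymal genes, 0.40 for ribosomal proteins, 0.39 for solute carriers, 0.39 for S phase genes, 0.38 for oxidative phosphorylation, 0.36 for hypoxia genes, 0.35 for YAP and TEAD targets, 0.34 for G1 genes, 0.34 for sphingolipid and arginine genes, 0.32 for junction genes, 0.29 for NF-kappaB and cytokine genes, 0.28 for SMADs and regulators, 0.27 for immediate-early genes, 0.22 for apoptosis genes, 0.21 for growth factor genes, 0.18 for clock genes, 0.18 for cholesterol genes, 0.12 for retinoid and steroid genes, 0.12 for interferon genes and 0.0736 for BMP targets. The SMAD2/3 median was 0.23 on the authors' processed values, 0.24 without background correction and 0.27 with an offset of 50. The junction median was 0.0262 on the bright arrays, 0.0172 without a detection filter and 0.0241 in both settings added later, and that of sphingolipid and arginine genes was −0.0725 among genes detected on all 8 ligand arrays. The causes were not tested. Whether the replicate numbers pair the samples was not settled. Same-numbered deviations from the group means correlated at −0.19 to 0.16, and for 3 of the 8 arrays the closest partner had the same number. GDF11 replicate 1 weighs on the GDF11 deviations, so these values cannot decide it. With the replicate number as a block, 57 genes were called, 30 higher and 27 lower.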
